A study of Mus musculus with 7 samples.

Results

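Aminoacyl-tRNA synthetases are the enzymes that attach each amino acid to its transfer RNA, and every round of translation draws on their products. Here 36 of their genes were followed in regulatory T cells in which Id2 and Id3 were deleted or kept, genes which encode partners that hold E protein transcription factors inactive. The members were taken by gene symbol from the 39179 genes of the authors' deposited table, and all 36 were found there. Of these, 20 encode cytosolic enzymes or subunits and 16 encode enzymes of mitochondria.

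The Id2/Id3 double-knockout (dKO) group holds 3 libraries of genotype Id2fl/flId3fl/flFoxp3cre, and the control group holds 2 libraries of genotype Id2fl/+Id3fl/+Foxp3cre. Both groups therefore carried a Cre driven from Foxp3, which marks regulatory T cells, and the controls carried 1 floxed copy of each gene. All mice were C57BL/6 animals 3 weeks old, and the cells were CD4+TCRb+CD25hi Foxp3+ cells sorted from lymph node. A further pair of libraries, 1 labelled dKO and 1 labelled control, was sequenced and processed separately. The titles and source names of that pair contradict its genotype tags, so its members are called the library labelled dKO and the library labelled control. No label says which animals a library came from, so the p-values measure the spread between libraries, which may be technical.

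The unit of the replicated comparison is the scaled count, a read count divided by the size factor of its library and averaged by the authors over the group. The authors' deposited table gives 1 such mean per group, the log2 ratio of dKO over control, and a p-value from DESeq, raw and adjusted over all genes. It gives no value per library and no SD, and no number of reads per library; the scaled counts summed to 3.99e+07 in dKO and 3.90e+07 in control. A member is said to have risen or fallen where the adjusted p was under 0.05. In the authors' deposited table Id2 stood at 61.1 scaled counts in dKO and 783 in control (log2 -3.68, adjusted p = 1.48e-08), and Id3 at 891 in dKO and 1376 in control (log2 -0.63, adjusted p = 0.209). The sources used here do not say how much of the counted Id3 transcript lies outside its floxed stretch. Foxp3 was abundant in both groups, with 10942 scaled counts in dKO and 13481 in control (log2 -0.30, adjusted p = 0.188, in the authors' deposited table). Of the 7 regulatory T cell markers, Foxp3 included, 1 rose and 0 fell, with a median log2 ratio of -0.01. The dKO mean lay above control in 3 of them and below in 4. The marker that rose was Ctla4, with 26706 scaled counts in dKO and 13258 in control (log2 1.01, adjusted p = 4.71e-05, in the authors' deposited table). Among B cell markers, Ms4a1 had 1.47 scaled counts in dKO and 1.76 in control, while Cd79b had 1006 in dKO and 894 in control, Cd22 had 266 in dKO and 172 in control, and Cd79a had 51.1 in dKO and 71.2 in control. The 7 granulocyte and mast cell markers summed to 7.05 in dKO and 13.4 in control.

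Most amino acids have a pair of synthetases, one for the cytosol and one for mitochondria, encoded by separate nuclear genes. In mammals the glycine and lysine enzymes, Gars and Kars, serve both compartments from a single gene. Several cytosolic enzymes, among them Eprs, Iars, Lars, Mars, Qars, Rars, Kars and Dars, assemble with the scaffold proteins Aimp1, Aimp2 and Eef1e1 into the multisynthetase complex. When uncharged transfer RNA accumulates, the kinase GCN2 (Eif2ak4) phosphorylates eIF2 alpha, which favours translation of the transcription factor ATF4, and many cytosolic synthetase genes are known ATF4 targets. T cells that leave rest and grow are known to raise amino acid uptake and protein synthesis.

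Cytosolic synthetases mostly had a higher mean in dKO than in control and 11 of 16 mitochondrial synthetases a lower one, and few of either passed the threshold. Vars and Hars, 2 of the 20 cytosolic members, rose in dKO in the authors' deposited table, and none fell. Ears2 and Wars2, 2 of the 16 mitochondrial members, fell in that deposited table, and none rose. The median log2 fold change was 0.22 over the cytosolic members and -0.05 over the mitochondrial members, against -0.008 over the 15446 genes whose mean reached 10 scaled counts. Without the members that overlap another gene, the mitochondrial median was 0.02, with 5 of the remaining 10 members higher and 5 lower in dKO, and Vars was the 1 call left. Over all genes with a p, 3.38% were called higher and 3.18% lower, 6.56% in all. Every synthetase reached a mean of 300 scaled counts, and among the 9394 genes that did so 7.98% were called higher and 6.83% lower, 14.8% in all. As shares, 2 called higher and 2 called lower among 36 members lie above those over all genes and below those over genes that reached 300. Within a compartment, 2 of 20 higher and 2 of 16 lower lie a little above the shares over genes that reached 300, and these counts are too small to set the synthetases apart.

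Direction alone was counted as well, called members included. The dKO mean lay above the control mean in 19 of the 20 cytosolic members, against 51.9% of the genes that reached a mean of 300 and 49.3% of all genes with a p. Sars, the seryl enzyme, was the exception, with 5718 scaled counts in dKO and 5858 in control. At an unadjusted p under 0.05, 7 cytosolic members were higher in dKO and none was lower, against 15.4% higher and 14.0% lower among genes that reached a mean of 300 (6.60% and 6.87% among all genes with a p). Among the mitochondrial members the dKO mean lay above control in 5 and below in 11, and at the unadjusted threshold 2 were lower and none was higher. The genes were measured in the same libraries and are not independent of each other, so no test was made of either list. In bulk samples a change in the number of cells of a kind and a change in RNA per cell cannot be told apart.

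**Figure D1:**
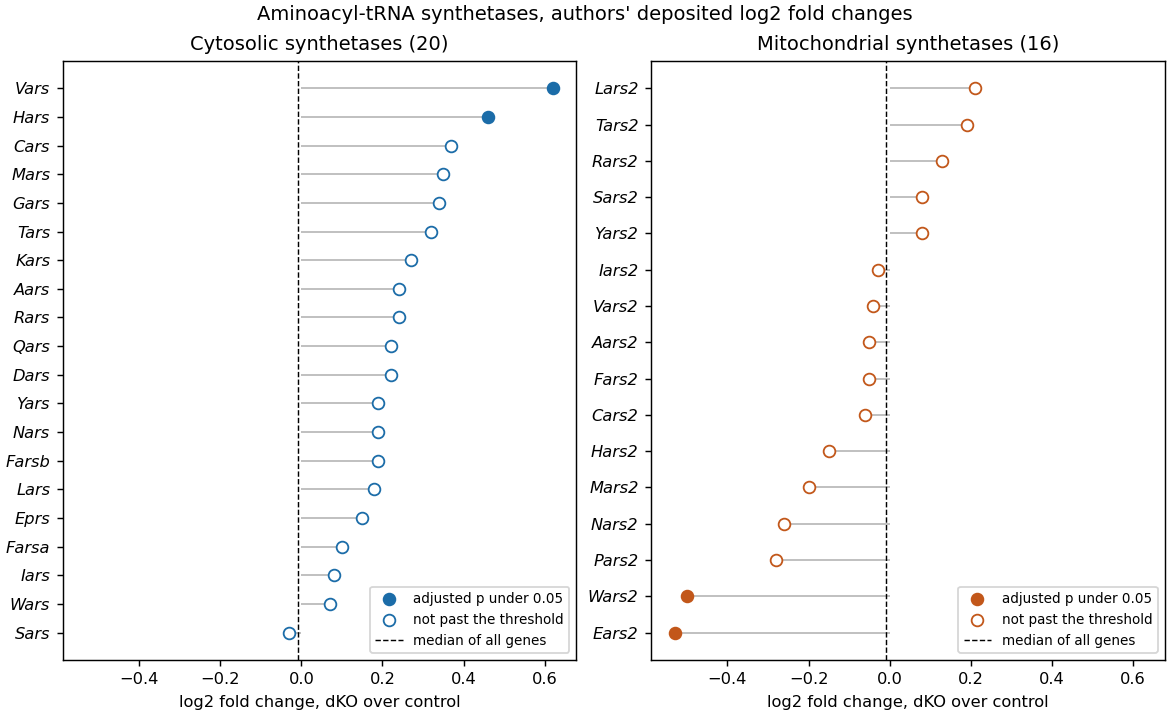
The deposited log2 fold change of each synthetase, dKO over control, is plotted along the horizontal axis, with cytosolic members on the left and mitochondrial members on the right. Filled points passed an adjusted p of 0.05 and the dashed line is the median of all genes, -0.008. The cytosolic points run between -0.03 and 0.62 and the mitochondrial points between -0.53 and 0.21.

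Vars, the enzyme that charges valine transfer RNA and binds the elongation factor eEF1 complex, had the highest count of the cytosolic members and the largest rise. It had 13870 scaled counts in dKO and 9020 in control (fold 1.54, log2 0.62, adjusted p = 8.70e-05, in the authors' deposited table). Its gene lies at chr17:35000987-35016322 on the plus strand of GRCm38 and overlaps no other gene of that table. It was the 1 member still called at an adjusted p under 0.01.

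Hars, the histidyl enzyme, had 4197 scaled counts in dKO and 3045 in control (fold 1.38, log2 0.46, adjusted p = 0.0110, in the authors' deposited table). It lies on the minus strand at chr18:36766530-36783205 and shares 198 bases with the mitochondrial Hars2 on the opposite strand. Hars2 itself had 1082 scaled counts in dKO and 1200 in control (log2 -0.15, not past the threshold in the authors' deposited table), the opposite direction. The sources used here do not say whether reads were counted by strand, so reads of the shared stretch cannot be assigned with certainty.

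5 more cytosolic members had an unadjusted p under 0.05 without passing the adjusted threshold. Gars (glycyl) had 5367 scaled counts in dKO and 4232 in control, a log2 ratio of 0.34 (adjusted p = 0.107, in the authors' deposited table of DESeq results). Cars (cysteinyl) had 1356 scaled counts in dKO and 1049 in control (log2 0.37, adjusted p = 0.114, in the authors' deposited table of DESeq results). The others were Mars (methionyl, log2 0.35), Tars (threonyl, log2 0.32) and Kars (lysyl, log2 0.27), which had an adjusted p of 0.121 for Mars, 0.176 for Tars and 0.289 for Kars by the authors' DESeq test. The remaining 13 members had log2 ratios between -0.03 and 0.24.

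Among the most abundant cytosolic members after Vars, Kars had 7885 scaled counts in dKO and 6530 in control, and Qars (glutaminyl) had 7857 in dKO and 6750 in control, a log2 ratio of 0.22 (authors' deposited table). The least abundant were Cars, given above, Yars (tyrosyl) with 1849 scaled counts in dKO and 1622 in control, and Farsa, the alpha subunit of the phenylalanyl enzyme, with 2706 in dKO and 2527 in control. Farsb, the beta subunit of the same enzyme, had 2883 scaled counts in dKO and 2531 in control, so the subunits stood at like counts in both groups. Summed over the 20 cytosolic members, the scaled counts came to 93603 in dKO and 77917 in control, a ratio of 1.20.

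The cytosolic members were also split by structure and by complex. Synthetases fall into class I and class II by the fold of their catalytic domain. Of 10 class I members 1 rose in the authors' deposited table, with a median log2 ratio of 0.20, and 1 of 10 class II members rose, with a median of 0.23. Of the 8 members of the multisynthetase complex 0 rose, with log2 ratios between 0.08 and 0.35 and a median of 0.22. The 12 members outside it held both calls and had a median of 0.21. Vars and Hars are also outside the list of 12 known ATF4 targets, of which 0 rose (median 0.19), against 2 of the other 8 (median 0.23). No difference between these splits was tested.

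Ears2, the mitochondrial glutamyl enzyme, had 386 scaled counts in dKO and 557 in control (fold 0.693, log2 -0.53, adjusted p = 0.0186, in the authors' deposited table). In mitochondria it also places glutamate on the glutamine transfer RNA, which the GatCAB amidotransferase then converts. It lies at chr7:122037213-122067263 on the minus strand and shares 89 bases with Ubfd1 on the plus strand, which had 2217 scaled counts in dKO and 2096 in control. Wars2, the mitochondrial tryptophanyl enzyme at chr3:99141068-99239186 on the plus strand, had 304 scaled counts in dKO and 429 in control (fold 0.709, log2 -0.50, adjusted p = 0.0476, in the authors' deposited table). The microRNA gene that lies inside Wars2 on the other strand was listed at 0 in dKO and 0.389 in control.

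For 13 of the mitochondrial members the reads of each control library could be recovered, because the deposited mean over 2 libraries admits only 1 pair of whole read numbers whose scaled values lie within 2-fold of each other. The control libraries have size factors of 1.29 and 1.09, and which of them is replicate 1 is not known. Ears2 had 554 and 559 scaled counts in the control libraries, against a dKO mean of 386. Wars2 had 449 and 410 in the control libraries, against a dKO mean of 304. In both genes the control libraries lay close together and the dKO mean lay below both of them.

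Across these 13 members the dKO mean was below both control libraries in 9, above both in 2 and between them in 2. The 9 were Ears2, Wars2, Pars2, Nars2, Mars2, Hars2, Aars2, Cars2 and Fars2. Pars2 (prolyl) had a dKO mean of 302 scaled counts against 368 and 365 in the control libraries, and Nars2 (asparaginyl) had 334 against 392 and 411. Rars2 (arginyl) and Yars2 (tyrosyl) lay above both control libraries, with a dKO mean of 932 against 824 and 884 for Rars2 and of 751 against 682 and 737 for Yars2. Sars2 (seryl) had the widest control spread, with a dKO mean of 708 scaled counts against 596 and 741, a fold of 1.24 between the controls. The smallest fold between the controls was 1.01. The spread between the 3 dKO libraries is unknown for every member, so lying below both controls is a description and no test.

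**Figure D2:**
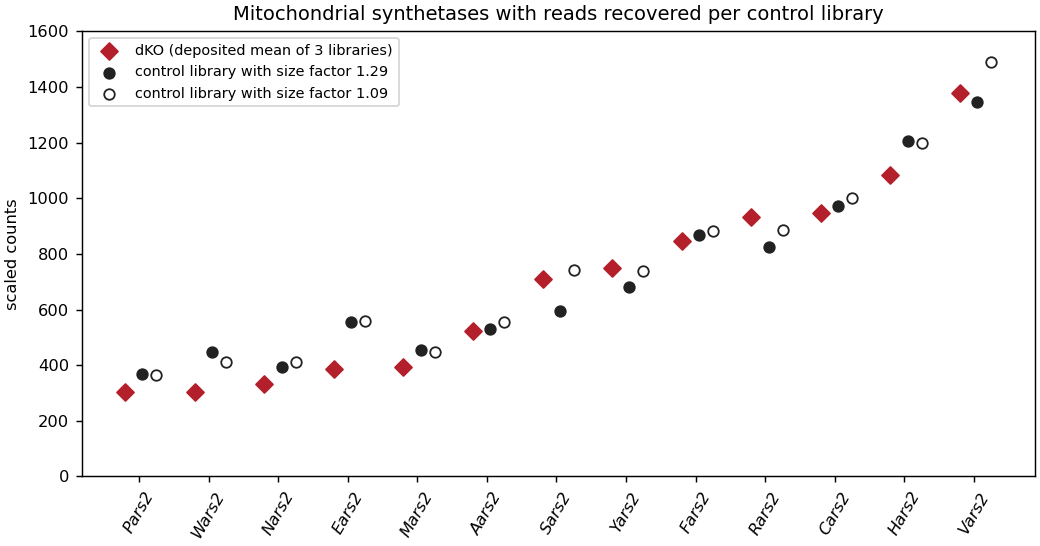
Scaled counts (vertical axis) are shown for the 13 mitochondrial synthetases whose reads were recovered in each control library. Red diamonds are the deposited means of the 3 dKO libraries, and filled and open circles are the control libraries with size factors 1.29 and 1.09. The diamond lies under both circles in 9 members, among them Ears2 (386 against 554 and 559) and Wars2 (304 against 449 and 410).

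2 cytosolic members could be read in the same way. Cars had 1046 and 1053 scaled counts in the control libraries, with a dKO mean of 1356 above both. Yars had 1676 and 1568 in the control libraries, with a dKO mean of 1849 above both. For Hars 2 pairs fitted within 2-fold, either 2998 and 3092 or 3797 and 2293 in the control libraries, and the dKO mean of 4197 exceeded all 4 values.

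The mitochondrial members spanned a far wider range of counts than the cytosolic ones because of Lars2, the mitochondrial leucyl enzyme. It had 177576 scaled counts in dKO and 153404 in control (log2 0.21, unadjusted p = 0.524, in the authors' deposited table) and did not pass the threshold. It ranked 5 among all genes by scaled count in dKO and 6 in control, and it made up 0.445% of all scaled counts in dKO and 0.394% in control. The next mitochondrial members, Tars2 (threonyl) and Iars2 (isoleucyl), had 2883 and 2629 scaled counts in dKO, against 2526 and 2689 in control. The sum over the 16 mitochondrial members, 191974 in dKO and 168078 in control, therefore follows Lars2. Without it the other 15 summed to 14398 in dKO and 14673 in control, a ratio of 0.981. No other gene's transcript matched Lars2 over 500 or more bases at 95% or more identity. Shorter shared stretches were not sought, so reads that Lars2 may share with other transcripts over such stretches are not excluded.

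The mitochondrial genome encodes 22 transfer RNAs, 2 ribosomal RNAs and 13 proteins, which are the substrates and products of this branch of translation. All 37 of these genes were listed at 0 in both groups in the authors' deposited table, so mitochondrial transcripts give no value to set beside the mitochondrial synthetases or beside the level of Lars2.

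Per kilobase of exon, a rough way to compare levels between genes, the median cytosolic member stood at 1232 scaled counts per kilobase in dKO and 1064 in control. The median mitochondrial member stood at 253 in dKO and 270 in control. Kars was the highest cytosolic member, with 3506 scaled counts per kilobase in dKO and 2904 in control, and Cars the lowest, with 292 in dKO and 226 in control. Lars2 reached 45755 scaled counts per kilobase in dKO and 39527 in control, above every other member. Wars2 was the lowest of all, with 51.2 in dKO and 72.2 in control. Vars, at 2473 scaled counts per kilobase in dKO and 1608 in control, was second to Kars in dKO, and its control level equalled that of Dars, the aspartyl enzyme. The exon length is 1 value per gene and need not be that of the transcript expressed, so these rankings are approximate. Qars, at 1089 in control, lay under Dars per kilobase. In the library labelled control of the separate pair, Qars lay above Dars, at 79.4 against 53.8 fragments scaled by transcript length and depth.

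**Figure D3:**
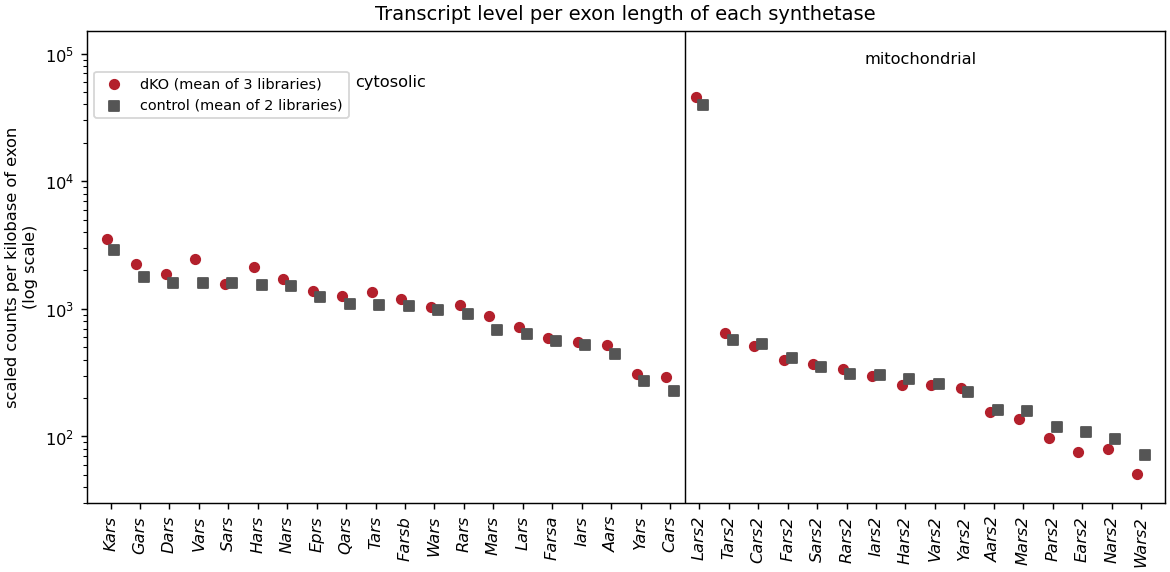
Scaled counts per kilobase of exon (vertical axis, log scale) are plotted for the 20 cytosolic members and the 16 mitochondrial members, each ordered by control level. Red circles are dKO means and grey squares control means, with no error because 1 mean per group is deposited. Lars2 stands at 45755 in dKO and 39527 in control, and the other mitochondrial members lie at or under 650 in dKO and 569 in control.

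The compartments can be matched for 16 amino acids, with Eprs, which charges both glutamate and proline, counted as the partner of Ears2 and of Pars2 and Farsa as the partner of Fars2. The deposited log2 ratio of the cytosolic enzyme lay above that of its mitochondrial partner for 14 amino acids and below it for 2, leucine and serine. The difference of the log2 ratios, cytosolic minus mitochondrial, had a median of 0.36 and ranged between -0.12 and 0.68. The largest gap was that of glutamate, with a log2 ratio of 0.15 for Eprs and -0.53 for Ears2. Valine followed with a gap of 0.66, from 0.62 for Vars and -0.04 for Vars2, and histidine with 0.61. Per kilobase, Vars exceeded Vars2 by 9.80 times in dKO and 6.19 times in control, and Hars exceeded Hars2 by 8.35 times in dKO and 5.46 times in control. Cysteine was the amino acid other than leucine whose mitochondrial enzyme stood higher per kilobase, with a Cars over Cars2 ratio of 0.570 in dKO and 0.424 in control. These gaps were not tested, since the members share their libraries and no value per dKO library is given.

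The genes around the synthetases were counted in 10 lists. Of the 82 genes in them, 17 passed the threshold of the authors' DESeq test (14 were higher in dKO and 3 lower), to be read against 6.56% of all genes and 14.8% of those that reached a mean of 300. Of the 14 higher ones, 8 were in the ATF4 pathway list. The 3 scaffolds of the multisynthetase complex did not pass, with 3629 scaled counts in dKO and 3132 in control for Aimp1 (log2 0.21), 1350 in dKO and 1131 in control for Aimp2 (log2 0.26), and 1160 in dKO and 988 in control for Eef1e1 (log2 0.23). Their median log2 ratio of 0.23 lay near the 0.22 of the complex's synthetases.

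Elongation factors carry charged transfer RNA to the ribosome and move it along. None of the 5 cytosolic factors passed the threshold, and their median log2 ratio was -0.02. Eef1a1 had 530258 scaled counts in dKO and 538321 in control, and Eef2 had 180616 in dKO and 161234 in control. Of the 8 mitochondrial elongation and finishing factors 0 passed, with a median log2 ratio of 0.14. Tufm, the mitochondrial elongation factor Tu, had 3953 scaled counts in dKO and 3632 in control, and Gfm1, a mitochondrial elongation factor G, had 1831 in dKO and 1608 in control. The subunits of the GatCAB amidotransferase, which completes the work of Ears2, were split in direction: Qrsl1 had 647 scaled counts in dKO and 587 in control, Pet112 had 439 in dKO and 399 in control, and Gatc had 570 in dKO and 661 in control. None of these passed.

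Single genes of transfer RNA proofreading, maturation and selenocysteine delivery rose. Aarsd1, a free-standing editing protein that clears wrongly charged alanine transfer RNA, had 2246 scaled counts in dKO and 1563 in control (log2 0.52, adjusted p = 0.00350, in the authors' deposited table), 1 of 4 in its list. Pop1, a protein subunit of the RNase P and RNase MRP ribonucleases, had 1034 scaled counts in dKO and 618 in control (log2 0.74, adjusted p = 3.78e-05, in the authors' deposited table), 1 of 9 maturation and export genes. Eefsec, the elongation factor for selenocysteine transfer RNA, had 2315 scaled counts in dKO and 1604 in control (log2 0.53, adjusted p = 0.00320, in the authors' deposited table), 1 of 4 in its list. The median log2 ratios of these lists were 0.03, 0.19 and -0.04.

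The ATF4 pathway was listed without its synthetase targets, as the amino acid enzymes, transporters and regulators that ATF4 is known to act with or on. In the authors' deposited table, 8 of its 24 genes rose and none fell, and the median log2 ratio was 0.40. Among all genes with a p 3.38% were called higher, and 7.98% among genes that reached a mean of 300. Asns, asparagine synthetase, had 654 scaled counts in dKO and 233 in control (log2 1.49, adjusted p = 9.96e-16, in the authors' deposited table). Stc2, a secreted glycoprotein, had 630 scaled counts in dKO and 170 in control (log2 1.89, adjusted p = 8.44e-09, in the authors' deposited table of DESeq results). Phgdh and Psat1, successive enzymes of serine synthesis, had 15836 and 6783 scaled counts in dKO, against 9325 and 4601 in control. Their log2 ratios were 0.76 for Phgdh (adjusted p = 5.24e-07) and 0.56 for Psat1 (adjusted p = 0.0010) in the authors' deposited table. The amino acid transporter subunit Slc7a5, the folate enzyme Mthfd2, Cebpb and Trib3 made up the 8. Atf4 itself had 6016 scaled counts in dKO and 4798 in control (log2 0.33, adjusted p = 0.311, in the authors' deposited table), and its control is known to lie largely in translation, which these data do not measure. Among the kinases of eIF2 alpha and the partners of GCN2, 1 of 8 rose, Eif2ak3 (PERK, the kinase of the endoplasmic reticulum), with 1302 scaled counts in dKO and 816 in control (log2 0.67, adjusted p = 5.00e-04, in the authors' deposited table). The GCN2 gene Eif2ak4 had 563 scaled counts in dKO and 639 in control and did not pass.

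MYC is a known activator of synthetase genes in growing cells. Of Myc and 7 partner genes 2 rose, Mxd3, with 1814 scaled counts in dKO and 1045 in control (log2 0.79, adjusted p = 1.35e-06, in the authors' deposited table), and Mxd1, with 8482 in dKO and 3233 in control (log2 1.39, adjusted p = 0.0124, same table). Both encode MAX-binding repressors. Myc had 7774 scaled counts in dKO and 7651 in control. Of 10 genes of leucine sensing and mTORC1 3 fell and 0 rose. Among all genes with a p 3.18% were called lower, and 6.83% among genes that reached a mean of 300. Sesn1, a leucine-binding inhibitor of mTORC1 signalling, had 1868 scaled counts in dKO and 4221 in control (log2 -1.18, adjusted p = 2.07e-16, in the authors' deposited table). Gatsl3, an arginine sensor, had 510 scaled counts in dKO and 1246 in control (log2 -1.29, adjusted p = 0.00490, in the authors' deposited table). Rragd, a Rag GTPase, had 288 in dKO and 693 in control (log2 -1.27, adjusted p = 0.0268, in the authors' deposited table).

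**Figure D4:**
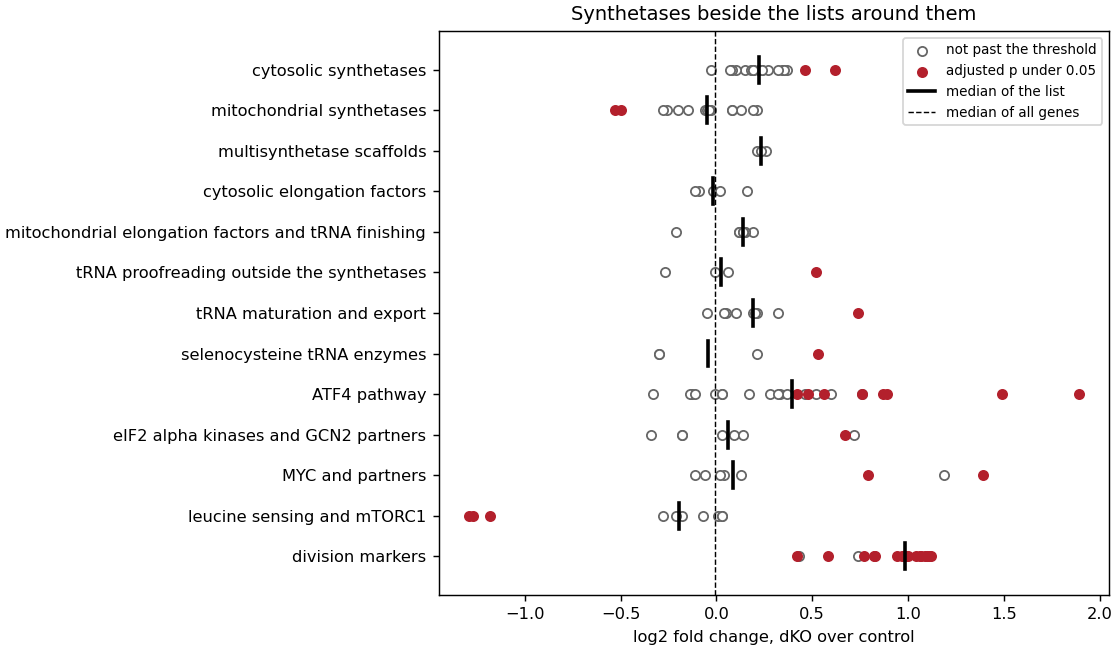
Each row shows the deposited log2 fold changes, dKO over control, of a list of genes, with filled points past an adjusted p of 0.05, a thick bar at the median of the list and a dashed line at the median of all genes. The cytosolic synthetases lie around 0.22, the scaffolds around 0.23 and the mitochondrial synthetases around -0.05. The ATF4 pathway has a median of 0.40 and the division markers of 0.99.

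Markers of dividing cells were higher in dKO beside the cytosolic synthetases. Of 20 division genes 18 rose in the authors' deposited table, against 3.38% of all genes and 7.98% of those that reached a mean of 300. The division genes had a median log2 ratio of 0.99 and a range of 0.42 to 1.12. Their scaled counts summed to 155387 in dKO and 84128 in control. Their part in the result for the synthetases was not tested. Plasma cell markers summed to 7554 scaled counts in dKO and 4015 in control. Most of that was Xbp1, and 1 of the 6 genes rose, Mzb1, with 905 scaled counts in dKO and 11.2 in control. Tnfrsf17, a defining plasma cell receptor, was listed at 0 in dKO and 1.24 in control, and Sdc1 had 28.0 in dKO and 23.4 in control. Igj was higher in dKO, with 133 scaled counts in dKO and 70.3 in control. Derl3 was lower, with 101 in dKO and 159 in control, and neither passed the threshold. Markers of CD8 T cells and NK cells summed to 2902 scaled counts in dKO and 908 in control, a difference that lay in Gzma (2006 in dKO and 59.6 in control), and 0 of the 7 passed the threshold. For B cells, 0 of 9 markers passed and the sums were 1358 in dKO and 1179 in control. Myeloid and dendritic cell markers summed to 203 in both groups, with 1 of 10, Xcr1, lower in dKO. Stromal and endothelial markers summed to 4561 in dKO and 4898 in control, with 1 of 7, Col1a2, lower in dKO. Pecam1 made up most of these sums, with 4397 in dKO and 4674 in control. Red cell markers summed to 10.8 in dKO and 12.6 in control. The part of these in the result was not tested.

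The amino acid response element read by ATF4 with C/EBP partners was sought in the promoters, since 8 genes of the ATF4 pathway rose in the same libraries. The letters TGATGNAA were searched on both strands of the RefSeq promoter windows of GRCm38.p6, which run from 250 bases before to 50 bases after each start site. They were present in 3.97% of 32851 promoters. Of the 36 members 27 have a promoter entry, 13 cytosolic and 14 mitochondrial, and 5 hold the letters, all of them cytosolic and on the list of known ATF4 targets. A window of 30 bases around a match in each gene follows, on the strand of the gene and from 5′ to 3′, with the match in capitals; the genes were chosen after their values were seen, because none of the 4 members past the threshold had a match.
Aars (chr8:111033840-111033869, plus strand): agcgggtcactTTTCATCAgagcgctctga
Gars (chr6:55037960-55037989, plus strand): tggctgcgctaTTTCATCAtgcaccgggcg
Iars (chr13:49682126-49682155, plus strand): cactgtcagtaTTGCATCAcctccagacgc
Tars (chr15:11399655-11399684, minus strand): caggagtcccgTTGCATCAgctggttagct
Yars (chr4:129189895-129189924, plus strand): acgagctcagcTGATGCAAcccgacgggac
In 4 of the 5 windows the match reads on the strand opposite to the gene and so appears here as its reverse complement. None of these 5 genes passed the threshold. Their median log2 ratio in the authors' deposited table was 0.24, against 0.20 for the 8 cytosolic members with a promoter entry and no match. The E-box letters CACGTG, read by MYC with MAX, were present in 7.15% of the promoters and in those of Aars, Ears2, Farsb, Iars and Tars. A match of letters is a description of the window and not a measured binding site. Vars and Hars have no entry in the promoter table.

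In the separately processed pair, levels are FPKM, fragment counts scaled by transcript length and library depth, summed over the RefSeq entries of a gene. All 36 members were matched there. With 1 library on each side there is no replicate check and no test, and the log2 ratio is that of FPKM plus a pseudocount of 1, which understates the change of low genes. Id2 stood at 9.69 FPKM in the library labelled dKO and 18.6 in the library labelled control. Id3, at 221 FPKM in the library labelled dKO and 160 in the library labelled control, goes against the labels, and every direction taken from this pair depends on them.

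All 20 cytosolic members reached 5 FPKM in at least 1 library of the pair. Of these, 17 were higher in the library labelled dKO and 3 were lower, against 50.9% higher among the 8681 genes at that level. The median log2 ratio was 0.19 for cytosolic members and 0.007 for all genes. A fold of 1.5 or more higher was reached by 2 cytosolic members, against 8.05% of all genes, and a fold of 1.5 or more lower by none, against 9.35%. These were Vars, with 156 FPKM in the library labelled dKO and 78.2 in the library labelled control (log2 ratio 0.99), and Gars, with 91.0 FPKM in the library labelled dKO and 56.9 in the library labelled control (log2 ratio 0.67). Hars had 66.8 FPKM in the library labelled dKO and 50.0 in the library labelled control, a log2 ratio of 0.41. Sars (log2 ratio -0.12), Farsb (-0.07) and Wars (-0.03) were the 3 lower ones.

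Of the 16 mitochondrial members 14 reached 5 FPKM, with 4 higher and 10 lower in the library labelled dKO and a median log2 ratio of -0.11. Lars2 was the most abundant, at 336 FPKM in the library labelled dKO and a log2 ratio of 0.73 over the library labelled control, and was the 1 member past 1.5-fold. Per length it stood 8.43 times above Tars2 in the library labelled dKO and 4.65 times in the library labelled control, against 70.4 times in dKO and 69.4 times in control in the replicated libraries, so its level relative to other members is uncertain and the cause was not tested. The other 3 higher ones were Sars2, Fars2 and Iars2. Ears2 had 10.8 FPKM in the library labelled dKO and 11.7 in the library labelled control (log2 ratio -0.10), a smaller gap than in the replicated libraries. Wars2, under the 5 FPKM limit, had 1.63 FPKM in the library labelled dKO and 2.74 in the library labelled control (log2 ratio -0.51). Mki67, a division marker, was at 46.2 FPKM in the library labelled dKO and 23.4 in the library labelled control, and Asns at 10.3 FPKM in the library labelled dKO and 4.50 in the library labelled control. Their part in the result was not tested.

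Across the 36 members the log2 ratio of the pair had the same sign as that of the replicated libraries in 29, made up of 18 of the 20 cytosolic and 11 of the 16 mitochondrial members. Pearson's r between the log2 ratios was 0.70 over the 36 members, 0.75 over the cytosolic and 0.53 over the mitochondrial members, and 0.65 without Vars. This r is across genes that share their libraries, and is given as a description. The 36 members include Nars2 and Wars2, which lay under the 5 FPKM limit. Neither a same-sign share nor an r over all genes is given here, so these values do not set the synthetases apart. With 19 of the 20 cytosolic members higher in the replicated libraries and 17 in the pair, most of their signs match from those counts alone.

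**Figure D5:**
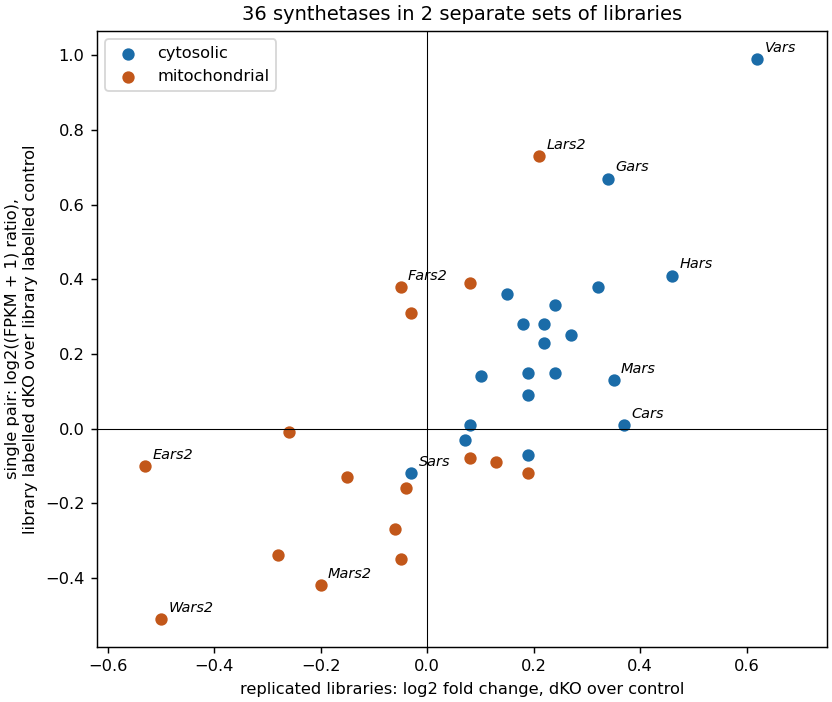
Each point is 1 of the 36 synthetases, with its log2 fold change in the replicated libraries, dKO over control, on the horizontal axis and its log2 ratio in the pair, library labelled dKO over library labelled control, on the vertical axis. Vars lies farthest to the upper right (0.62 and 0.99) and Wars2 lies in the lower left (-0.50 and -0.51). Cytosolic points lie mostly in the upper right, with Sars at -0.03 and -0.12.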

How the data were processed

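Messenger RNA of sorted regulatory T cells was sequenced in 7 libraries. Reverse transcription used random hexamers with oligo-dT, and dUTP marked the strand, per the labels' protocols. For the replicated libraries the authors deposited 1 signal value per gene and group, called raw counts in the file headers but fractional, whose smallest steps are those of read counts over a size factor. Each deposited log2 value compares the dKO mean with the control mean, and raw and adjusted p-values were deposited beside it. The exon length, a score column of the deposited table, gave levels per kilobase. RSEM and DESeq (no versions named) were run on mm10 (GRCm38), per the submitters' processing notes. For the pair, the authors deposited FPKM made with TopHat 1.4.0 and Cuffdiff 0.0.6 on mm9, per the submitters' processing notes and the file headers.

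Tests on counts per library had been planned, but group means were deposited, so the authors' DESeq test was used as given. Recomputed log2 ratios (for means of at least 10) and Benjamini-Hochberg values differed from the deposited ones by at most 8.22e-05 and 0.00124. Reads of each control library were sought as whole numbers that give the deposited mean within 6e-05. Of 1076 genes with a control mean of 200 to 400, all had 1 such pair, and 97.1% of these lay within 2-fold of each other. For higher counts the pair within 2-fold was taken where it was the only one. Transcripts of GENCODE M21 were compared with BLAST 2.17.0 for matches of 95% or more identity over 500 or more bases. Tables were handled with pandas 2.3.3 in Python 3.11.15. In the pair, 27200 of 27901 entries (97.5%) had a symbol.

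The members and gene lists were chosen with earlier results of these data known, so no list was tested. Every member is given by count or range, with values in full for those past an adjusted p of 0.05 and for the 3 highest and 3 lowest of each compartment. From each list up to 4 genes with the smallest adjusted p are named, or the 2 with the highest mean where none passed. Genes named besides these were chosen after their values were seen. A few items are not reported here.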

Additional observations from a re-analysis of the deposited data

How the results depend on the processing

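With an adjusted p under 0.01, the members called were 1 higher (Vars, cytosolic) and 0 lower. Among members that overlap no other gene the counts were also 1 higher (Vars, cytosolic) and 0 lower, since Hars, Ears2 and Wars2 all overlap another gene. At an adjusted p under 0.1, and when the adjustment was repeated over the genes that reached a mean of 10, the counts stayed at 2 higher and 2 lower. The median log2 ratio of the cytosolic members lay between 0.18 and 0.24 over total-count scaling, centring on all genes, a pseudocount of 10 and removal of overlapping members. That of the mitochondrial members lay between -0.09 and 0.02 over the same settings and was above 0 without overlapping members, so its sign is not fixed. Adding the counts of genes with matching transcripts gave a mitochondrial median of -0.06. For the cytosolic members this addition could change nothing, since their matching genes, Exosc6 and Gm4849, are not listed in the deposited table. Under both scalings, which were applied to these counts after seeing the data, the dKO mean still exceeded control in 19 cytosolic and 5 mitochondrial members. Against 1 control library at a time, the log2 ratio was -0.54 to -0.52 for Ears2 and -0.56 to -0.43 for Wars2, and the median of the 13 mitochondrial members was -0.11 to -0.04. In the pair, the medians lay between 0.18 and 0.19 for cytosolic and between -0.12 and -0.09 for mitochondrial members over the pseudocounts and filters tried. The genes called in the lists around the synthetases numbered 17, with 13 at 0.01 and 18 at 0.1.

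No paired analysis was possible because the deposited columns are group means that carry no replicate number. For the same reason edgeR and DESeq2 on counts per library, and leaving out each dKO library, were not run. Precision is limited by 3 dKO and 2 control libraries with unknown spread among the dKO libraries, by unknown read depth, and by Hars, Ears2 and Wars2 sharing bases with neighbours. The neighbour of Wars2 is a microRNA gene listed at only 0 scaled counts in dKO and 0.389 in control. BLAST found matches between members and other genes for Aars (Exosc6), Fars2 (Nrn1), Iars (Gm4849) and Iars2 (Rab3gap2), so their counts are uncertain. Iars2 and Rab3gap2 also share 2018 bases on opposite strands, so their match need not be a separate copy.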

Other observations

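Tarsl2, a further threonyl synthetase that is not among the 36, was looked at after its values were seen. It had 324 scaled counts in dKO and 328 in control (log2 -0.02, not past the threshold in the authors' deposited table).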
